A study of Mus musculus with 12 samples.

Results

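The 2 mutant lines of an mIMCD3 model of polycystic kidney disease were compared directly, with the 4 Pkd2-/- libraries set against the 4 Pkd1-/- libraries. Members were taken as those genes whose normalized counts averaged 10 or more over these 8 libraries, which gave 13657 of the 47642 genes in the table, 11501 of them protein-coding. mIMCD3 is an immortalized epithelial line from the inner medullary collecting duct of mice that carry the early region of the SV40 virus as a transgene, so that all groups share this background. The Pkd1-/- cells are 1 clone in which CRISPR removed nearly the whole gene, and the Pkd2-/- cells are 1 clone in which TALENs removed several internal exons. The 4 wild-type (Wt) libraries of the unedited line enter below only to place a gene between or beyond the mutants. All RNA came from cells kept for several days after full confluency, and the 4 libraries of a genotype are dishes of 1 line, so that p-values measure the spread between dishes and a difference between the clones cannot be told apart from the effect of the deleted gene.

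Pkd1 encodes polycystin-1, a large receptor-like membrane protein, and Pkd2 encodes TRPP2 (polycystin-2), a cation channel. The proteins form a complex in the primary cilium and other membranes, and loss of either causes autosomal dominant polycystic kidney disease, in which tubules widen into fluid-filled cysts. A direct comparison of cells that lack either partner asks where the resulting transcription is not shared.

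Expression of the deleted genes was examined first. Pkd1 (chr17:24549834-24596508 on GRCm38, minus strand) gave 40, 49, 48 and 30 normalized counts in the Pkd1-/- libraries and 1057, 1216, 1071 and 1492 in the Pkd2-/- libraries, with 682, 688, 883 and 876 in Wt. All Pkd1-/- libraries thus lay below all others, with a log2 difference between the mutants of 4.83 (SE 0.14, adjusted p = 3.32e-15 by limma). The deletion reported by the authors stops short of both ends of the annotated gene, and the source of the remaining counts was not tested. Pkd2 (chr5:104459450-104505819, plus strand) gave 2545, 2762, 2679 and 2858 in Pkd1-/-, 3855, 3921, 4034 and 4135 in Pkd2-/- and 4190, 3438, 3790 and 4467 in Wt. The Pkd2-/- range lay within that of Wt, but a count over the whole gene includes exons outside the deletion, so the Pkd2 value checks nothing about the label. The authors report that the deleted exons had no counts and that TRPP2 protein was lost by Western blot. Here Pkd2-/- stands throughout for the libraries labelled so. Of the 13 members within 100 kb of the Pkd1 deletion, Pkd1 and Syngr3 were called, and of the 4 within 100 kb of the Pkd2 deletion 0 were called by limma, with 3 at an unadjusted p-value under 0.05. Libraries summed to 25966273 to 28027792 normalized counts, from an estimated 23200000 to 30300000 reads on genes. On log2 values, libraries of 1 mutant correlated at r = 0.991 to 0.994 and libraries of different mutants at r = 0.926 to 0.933 across members, which are not independent replicates. The collecting duct identity of the lines was partial by these markers. The tubular keratins and the transcription factors Pax2, Pax8 and Grhl2 were expressed in both mutants, whereas Aqp2, the vasopressin-regulated water channel of principal cells, was at 0 in all 12 libraries.

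Differences between the mutants were widespread and uneven. With an adjusted p-value below 0.05 and the mutants at least 1 apart on the log2 scale (limma, Benjamini-Hochberg over all tested genes), 1419 members were called, or 10.4% of members. Of these, 573 (4.2% of members) were higher in Pkd2-/- and 846 (6.19%) were lower. In 1364 of the called members the 4 and 4 libraries did not overlap, which was also so in 53.1% of all members. The exact permutation test of 4 libraries against 4 cannot give a p-value below 0.0286 and gives this value for each such gene. The median log2 difference over all members was near 0, at -0.01. Among called members, the median size of the log2 difference was 1.56 for those higher and 1.98 for those lower in Pkd2-/-. The imbalance grew with size: 71 members were higher and 296 lower by a log2 difference of at least 3, and 10 against 135 by at least 5.

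**Figure D1:**
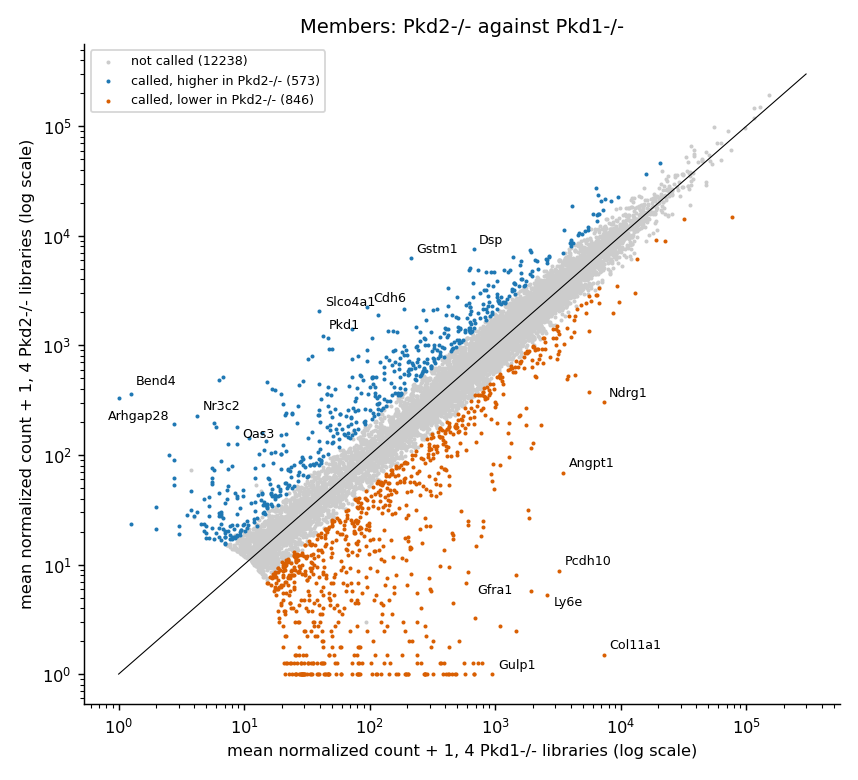
Mean normalized count + 1 of each of the 13657 members in the 4 Pkd1-/- libraries (x axis, log scale) against the 4 Pkd2-/- libraries (y axis, log scale), with called members in color and the line of equality in black. The 846 members lower in Pkd2-/- reach down to the baseline at the lower edge, whereas few of the 573 higher members come close to the left edge.

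Far more genes were silent in Pkd2-/- than in Pkd1-/-. In 161 members (1.18%) all 4 Pkd2-/- libraries held at most 3 normalized counts, and 70 of these were at 0 in all 4. Only 7 members (0.0513%) held at most 3 in all 4 Pkd1-/- libraries: Bend4, Arhgap28, Ppp1r14c, Tns1, Ripor3, Nr1h4 and Adgre5. Where all 4 libraries were at 0 the fold is a lower bound, computed from the mean of the other mutant against a floor of 3 normalized counts per library, and elsewhere the log2 difference, which depends on the pseudocount for such genes, is given. Over the 161 members the Pkd1-/- mean had a median of 17.9 times this floor and reached 2457 times. Wild-type libraries were also at or under the floor for 20 of the 161, and all 4 were above it for 106. Membership required a mean of 10 over the mutants, so that the 161 had to be expressed in Pkd1-/-. The promoter windows of these genes, where RefSeq gives one (115 genes), held a median of 15 CpG dinucleotides in 300 bases, against 23 for the 9415 other members with a window, with quartiles of 8 to 25 and 15 to 30. Members called lower in Pkd2-/- as a whole were similar, with a median of 16 (quartiles 8 to 26), and those called higher had a median of 20.

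The 12 largest deficits in Pkd2-/- were led by a collagen and included a pair of Eph receptors. Col11a1 (chr3:114030540-114220718), a chain of the fibrillar collagen XI, gave 6922, 7624, 7452 and 7484 normalized counts in Pkd1-/-, 1, 0, 0 and 1 in Pkd2-/- and 346, 343, 409 and 335 in Wt. It was thus raised in every Pkd1-/- library and nearly absent from every Pkd2-/- library, with a log2 difference of -12.35 (adjusted p = 6.06e-19). Gulp1, an adaptor for the engulfment of dying cells, gave 1001, 955, 983 and 856 in Pkd1-/-, 0, 0, 0 and 0 in Pkd2-/- and 169, 161, 162 and 149 in Wt, at least 316.2-fold higher in Pkd1-/- (adjusted p = 3.41e-19). The Eph receptors Ephb3 and Epha3, tyrosine kinases that read ephrins on neighboring cells, behaved alike. Ephb3 gave 671, 719, 639 and 690 in Pkd1-/-, 0, 0, 0 and 0 in Pkd2-/- and 21, 45, 30 and 17 in Wt. Epha3 gave 600, 714, 686 and 710 in Pkd1-/-, 0, 0, 0 and 0 in Pkd2-/- and 21, 8, 18 and 18 in Wt. The Pkd1-/- means were at least 226.6 and 225.8 times those of Pkd2-/-. For other genes Pkd1-/- stayed close to Wt. Ly6e, a surface protein anchored by glycosylphosphatidylinositol, gave 2718, 2581, 2579 and 2409 in Pkd1-/-, 2926, 2983, 3038 and 2997 in Wt and 3, 0, 8 and 6 in Pkd2-/-, a log2 difference of -9.33 (SE 0.42, adjusted p = 1.21e-12). Ctsc, the lysosomal cathepsin C, gave 784, 741, 689 and 726 in Pkd1-/-, 642, 709, 640 and 668 in Wt and 0, 0, 0 and 1 in Pkd2-/-, a log2 difference of -9.27. The same held for Map2, a microtubule-associated protein (log2 difference -9.37), Sertad4 (-9.33), Prrg1 (at least 191.6-fold) and Hspb8, a small heat shock protein (at least 159.7-fold). Pcdh11x, a protocadherin of the X chromosome, and Brinp3 completed the 12 largest deficits, the former with a log2 difference of -9.12 and the latter at least 160.9-fold higher in Pkd1-/-, where both exceeded Wt.

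The largest excesses in Pkd2-/- included regulators of small GTPases and a steroid receptor. Arhgap28 (chr17:67842713-68004120), a GTPase-activating protein, gave 0, 0, 0 and 0 in Pkd1-/-, 307, 314, 308 and 378 in Pkd2-/- and 30, 18, 29 and 35 in Wt, at least 108.9-fold higher in Pkd2-/- (adjusted p = 1.97e-15). Bend4 gave 0, 0, 0 and 1 in Pkd1-/-, 318, 393, 324 and 410 in Pkd2-/- and 64, 78, 76 and 77 in Wt, a log2 difference of 8.24. Both genes lay above Wt in every Pkd2-/- library and at or near 0 in every Pkd1-/- library. Nr3c2, the mineralocorticoid receptor through which aldosterone acts on the collecting duct, gave 1, 4, 1 and 7 in Pkd1-/-, 241, 214, 190 and 265 in Pkd2-/- and 19, 14, 4 and 26 in Wt, a log2 difference of 5.99 (SE 0.47, adjusted p = 4.42e-09). Slco4a1, an organic anion transporter, gave 50, 33, 33 and 39 in Pkd1-/-, 2009, 1923, 2019 and 2202 in Pkd2-/- and 232, 282, 243 and 285 in Wt (log2 difference 5.700). In both genes every Pkd2-/- library was above all 8 others, and Pkd1-/- was below Wt in every library for Slco4a1 but overlapped with Wt for Nr3c2. A further 3 genes were lost mainly from Pkd1-/-, namely Pcbp3, an RNA-binding protein (6.44), Ranbp17, of the nuclear transport receptor family (6.38), and Arhgap24, a GTPase-activating protein for Rac (6.38). Arhgef3, a guanine nucleotide exchange factor (5.48), was below Wt in Pkd1-/- (-2.39) and above it in Pkd2-/- (3.08). Parvb, a focal adhesion protein (4.98), Camk1d, a calmodulin-dependent kinase (4.97), and Gstm1, a glutathione transferase (4.89), differed from Wt mainly in Pkd2-/-, where they were higher. Ppp1r14c, an inhibitor of protein phosphatase 1, was higher in Pkd2-/- by a log2 difference of 5.24.

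**Figure D2:**
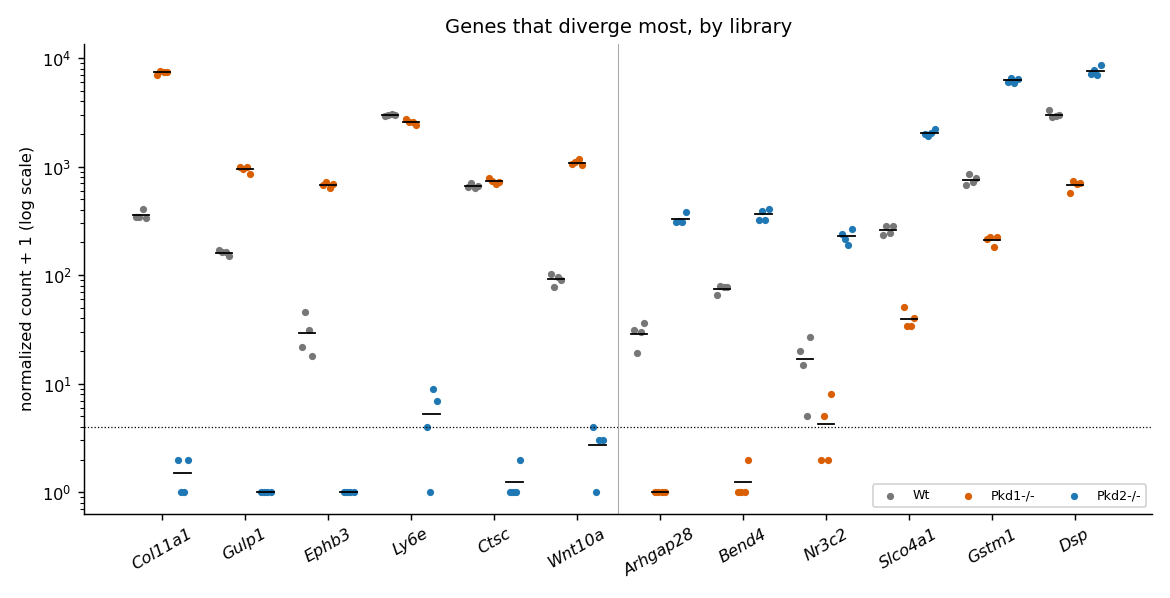
Normalized count + 1 (log scale) of 12 genes in each library, 4 points a genotype, with a black bar at the mean and a dotted line at a count of 3. The 6 genes on the left are lower in Pkd2-/- and the 6 on the right higher, and for each of the 12 the Pkd1-/- and Pkd2-/- points do not overlap.

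Well-expressed genes diverged as well. Among members that averaged 1000 or more over the mutant libraries, Gstm1 gave 214, 224, 181 and 224 in Pkd1-/- and 6007, 6583, 5921 and 6478 in Pkd2-/-, with 678, 854, 722 and 780 in Wt. Its neighbor Gstm2 moved with it (log2 difference 3.499), and reads can be split uncertainly between these similar genes. Dsp, the desmoplakin that ties keratin filaments to desmosomes, gave 576, 735, 685 and 699 in Pkd1-/- and 7066, 7738, 6936 and 8573 in Pkd2-/-, with 3288, 2848, 2919 and 3008 in Wt, so that every Pkd1-/- library was below and every Pkd2-/- library above Wt. Cdh6, the K-cadherin of the developing kidney (4.55), Lgals9, a galectin (4.01), Tbc1d4, a Rab GTPase-activating protein of glucose transporter traffic (3.01), and Fam171a1 (3.01) were also higher in Pkd2-/-. In the other direction, Ndrg1, a stress- and hypoxia-responsive gene, gave 7675, 6953, 7420 and 7247 in Pkd1-/-, 345, 282, 313 and 275 in Pkd2-/- and 5903, 5915, 5675 and 5295 in Wt (log2 difference -4.59, SE 0.06). Pcdh10, a protocadherin, gave 3023, 3415, 3145 and 3375 in Pkd1-/- and 4, 11, 5 and 11 in Pkd2-/-, with 77, 69, 74 and 87 in Wt. Both genes were far below the Pkd1-/- range in every Pkd2-/- library. Angpt1, the ligand of the Tie2 receptor (-5.73), Epha7 (-4.08), Gxylt2, a xylosyltransferase (-3.97), and Arc (-3.96) were lower in Pkd2-/- too.

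For 534 members the mutants lay on opposite sides of wild-type. These genes were called between the mutants, and each mutant differed from Wt at an adjusted p-value under 0.05 in its own direction. They made up 3.91% of members and 37.6% of called members, 236 higher and 298 lower in Pkd2-/-. Both comparisons share the 4 Wt libraries, so the values of each are given side by side. In 185 of the 534 the log2 difference from Wt was at least 1 in both mutants, 43 of them higher and 142 lower in Pkd2-/-. In 454 the 4 libraries of each mutant were all beyond the 4 Wt libraries on their own side. The 534 were chosen by these same differences from Wt, so the separation describes the choice and adds no support. Its share over all members is not given. Among the genes low in Pkd1-/- and high in Pkd2-/-, ranked by the smaller of both differences, Arhgap28, Slco4a1, Arhgef3 and Bend4 came first. They were followed by Limch1 (-2.44 in Pkd1-/- and 2.13 in Pkd2-/-, log2 difference from Wt), Nr3c2 (-1.996 and 3.998), Tspan8, a tetraspanin (-2.71 and 1.94), Gstm1 (-1.84 and 3.04), Wnt5b (-1.65 and 2.98) and Zfp493 (-1.63 and 1.73). Tspan8 gave 41, 59, 48 and 36 normalized counts in Pkd1-/-, 301, 268, 335 and 306 in Wt and 1128, 1215, 1139 and 1144 in Pkd2-/-. The 3 genotypes were thus in 3 separate ranges. Among the genes high in Pkd1-/- and low in Pkd2-/-, the first 10 were Ephb3, Col11a1, Pcdh11x, Epha3, Brinp3, Mgp, Wnt10a, Bche, Pcdh9 and Nrk, and all 10 were at the floor in the Pkd2-/- libraries. Mgp, the matrix Gla protein that restrains calcification, gave 184, 198, 195 and 178 in Pkd1-/-, 15, 10, 11 and 12 in Wt and 0, 0, 0 and 0 in Pkd2-/-. Bche, butyrylcholinesterase, gave 358, 453, 407 and 391 in Pkd1-/-, 44, 38, 30 and 26 in Wt and 0, 0, 0 and 0 in Pkd2-/-. Both were low in Wt, high in every Pkd1-/- library and near 0 in every Pkd2-/- library.

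**Figure D3:**
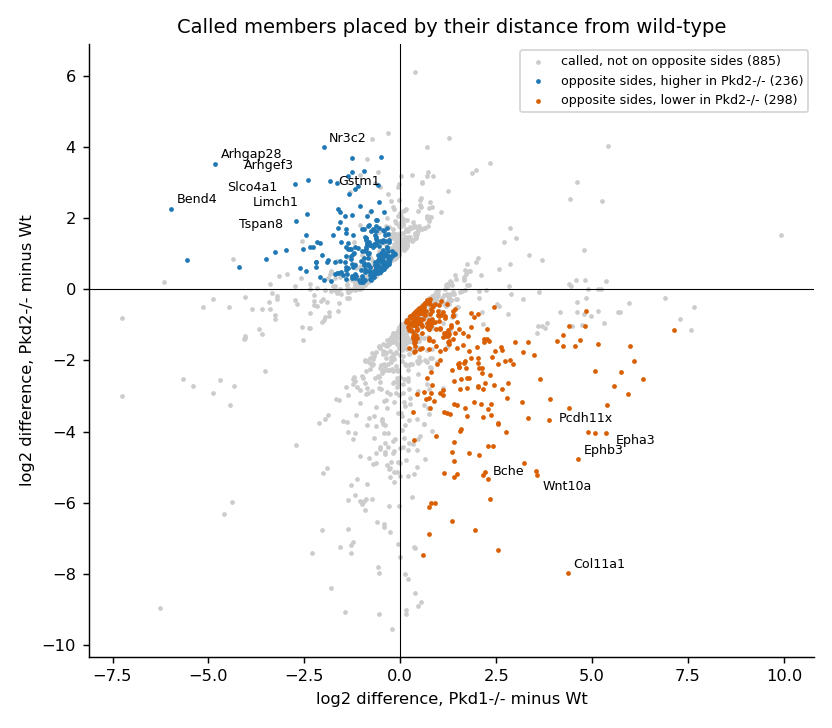
Log2 difference from Wt of the 1419 called members in Pkd1-/- (x axis) and Pkd2-/- (y axis). Both axes use the same 4 Wt libraries. The 236 genes in blue are lower in Pkd1-/- and higher in Pkd2-/- than Wt, the 298 in orange the reverse, and the orange genes reach further from 0.

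The interferon-stimulated genes formed the clearest group that was higher in Pkd2-/-. Type I interferon acts through its receptor on transcription factors such as Stat2 and Irf9, which bind promoters of antiviral effectors at the interferon-stimulated response element. Of 44 antiviral effectors among the members, 26 were called higher and 2 lower (Ifi204 and Oasl1), with a median log2 difference of 1.16, beside -0.01 over all members. Of the 28 called, 18 lay on opposite sides of Wt, each lower than Wt in Pkd1-/- and higher in Pkd2-/-. The RNA and DNA sensors Dhx58 (2.35), Ifih1 (1.76) and Ddx58 (1.11) were also higher, as were the transcription factors Irf7 (1.998) and Irf9 (1.05) and the chemokine Cxcl10 (2.49). The promoters of the 6 effectors with the largest differences among those with a response element are shown because the group moved together. RefSeq (GRCm38.p6) gave a window of 250 bases before to 50 after the gene start for 9530 members, and capitals mark the core of the element (GAAA, any 2 bases, then GAAA) on either strand, with overlapping matches joined.

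Oas3: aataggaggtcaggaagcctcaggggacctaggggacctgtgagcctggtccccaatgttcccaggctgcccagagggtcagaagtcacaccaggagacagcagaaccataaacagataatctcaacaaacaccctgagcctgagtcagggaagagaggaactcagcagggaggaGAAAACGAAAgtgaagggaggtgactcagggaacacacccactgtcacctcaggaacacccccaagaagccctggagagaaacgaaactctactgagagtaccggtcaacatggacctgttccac
Rsad2: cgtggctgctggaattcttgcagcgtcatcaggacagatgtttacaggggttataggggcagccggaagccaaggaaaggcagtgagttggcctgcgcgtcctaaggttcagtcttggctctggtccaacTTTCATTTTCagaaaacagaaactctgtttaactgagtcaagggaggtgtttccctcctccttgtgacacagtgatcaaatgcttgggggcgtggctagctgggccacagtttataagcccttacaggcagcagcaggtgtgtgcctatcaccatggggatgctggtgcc
Gbp3: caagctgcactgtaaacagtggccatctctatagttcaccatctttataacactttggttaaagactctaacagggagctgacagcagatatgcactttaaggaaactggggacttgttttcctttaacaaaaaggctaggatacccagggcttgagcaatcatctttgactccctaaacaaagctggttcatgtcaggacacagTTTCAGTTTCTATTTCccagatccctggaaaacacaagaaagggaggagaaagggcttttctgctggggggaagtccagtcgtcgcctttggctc
Oas1g: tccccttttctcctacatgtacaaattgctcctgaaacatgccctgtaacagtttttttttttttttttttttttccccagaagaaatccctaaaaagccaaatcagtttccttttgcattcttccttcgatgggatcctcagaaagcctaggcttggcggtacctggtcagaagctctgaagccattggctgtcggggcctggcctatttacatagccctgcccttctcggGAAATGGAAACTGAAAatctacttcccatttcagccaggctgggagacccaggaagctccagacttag
Oas1a: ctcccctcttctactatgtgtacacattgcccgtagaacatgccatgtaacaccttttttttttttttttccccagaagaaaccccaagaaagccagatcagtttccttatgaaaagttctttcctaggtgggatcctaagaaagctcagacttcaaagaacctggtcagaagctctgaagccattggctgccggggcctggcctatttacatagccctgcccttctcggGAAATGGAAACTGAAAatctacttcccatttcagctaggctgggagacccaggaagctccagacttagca
Ifit1: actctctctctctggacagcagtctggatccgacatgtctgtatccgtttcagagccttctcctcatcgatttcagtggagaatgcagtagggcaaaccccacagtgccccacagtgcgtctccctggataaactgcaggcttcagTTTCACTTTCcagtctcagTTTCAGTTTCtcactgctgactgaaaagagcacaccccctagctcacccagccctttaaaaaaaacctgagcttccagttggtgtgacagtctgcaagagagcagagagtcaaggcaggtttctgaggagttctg

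These windows lie at chr5:120777610-120777909 on the minus strand for Oas3, chr12:26456403-26456702 on the minus strand for Rsad2, chr3:142559794-142560093 on the plus strand for Gbp3, chr5:120887564-120887863 on the minus strand for Oas1g, chr5:120907476-120907775 on the minus strand for Oas1a and chr19:34640639-34640938 on the plus strand for Ifit1. Rsad2, Gbp3 and Ifit1 thus lie on other chromosomes than the Oas genes, which are neighbors. The core was found in 13 of the 20 effectors that were called higher and have a window, or 65%. It was found in 6 of 16 other effectors (37.5%), in 3.43% of all members with a window and in 3.44% of all 32851 windows. Among members with a window it was held by 7.64% of the 419 called higher and 3.48% of the 574 called lower. A match is a run of letters and not evidence of binding.

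Oas3, a synthetase of the signal that activates RNase L, gave 4, 11, 4 and 12 in Pkd1-/-, 41, 30, 66 and 41 in Wt and 112, 145, 101 and 147 in Pkd2-/- (log2 difference 3.99, SE 0.32, adjusted p = 5.34e-09). Rsad2, the antiviral protein viperin, gave 29, 12, 18 and 23 in Pkd1-/-, 162, 184, 230 and 314 in Wt and 238, 280, 215 and 220 in Pkd2-/- (log2 difference 3.53). Oas3 was above Wt in every Pkd2-/- library, whereas for Rsad2 the Pkd2-/- and Wt ranges overlapped and the divergence came from Pkd1-/-. Ifit1, which binds foreign RNA ends, gave 943, 871, 930 and 980 in Pkd1-/-, 1937, 1507, 1682 and 1761 in Wt and 4608, 4889, 4830 and 4520 in Pkd2-/- (log2 difference 2.34, adjusted p = 1.06e-15). Isg15, a ubiquitin-like modifier, gave 249, 216, 222 and 251 in Pkd1-/-, 400, 363, 417 and 445 in Wt and 1002, 1006, 1050 and 819 in Pkd2-/- (log2 difference 2.04). Both had 3 separate ranges in the order Pkd1-/-, Wt, Pkd2-/-. Usp18, which removes Isg15 from proteins (3.39), Mx2 (3.46), the guanylate-binding proteins Gbp3 (2.97) and Gbp2 (1.895), Cmpk2 (2.44) and Bst2, tetherin (1.35), followed the same direction. Reads of the Oas1, Ifit and Gbp genes can be split uncertainly between near copies. The Oas genes lie in a stretch of chromosome 5 with a median difference of 0.02, and with each chromosome's median subtracted 28 effectors were again called. That step moves all genes of a chromosome by 1 small value per library, so it cannot test shorter stretches.

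Class I antigen presentation moved less. Of 8 class I genes 0 were called higher and H2-M3 was lower (-1.51), with a median of 0.38, and of 11 peptide-processing genes the activator Nlrc5 (2.19) and the immunoproteasome subunit Psmb8 (1.14) were higher. Of 45 cytokine, chemokine and NF-kappaB genes 5 were higher, among them the receptor Tnfrsf1b (3.53), and 2 lower. These were 15.6% of the list, beside 10.4% of all members called. The complement component C1ra (log2 difference -1.99) and the chaperone Clu (-2.47) were below Pkd1-/- in Pkd2-/-.

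Extracellular matrix genes leaned the other way. Of 61 members of the matrix lists, 27 were lower and 6 higher in Pkd2-/-, with a median of -0.49. Summed counts did not fall with the number of calls. Over all genes of these lists they were 193867 to 282633 in Pkd2-/-, 163039 to 205687 in Pkd1-/- and 174768 to 230748 in Wt. The fibrillar and network collagens showed it most, with 6 of 7 called lower and 0 called higher: Col11a1, Col8a2 (-5.46), Col3a1 (-3.69), Col6a1 (-3.604), Col16a1 (-2.31) and Col27a1 (-1.296). The remaining 1 was higher at an adjusted p-value under 0.05 (limma) but under the fold threshold. Counts summed over the collagen list were 12756 to 13344 in Pkd2-/-, below Pkd1-/- (15014 to 17072) but above Wt (8674 to 10145). Enzymes that modify and crosslink collagen had 5 of 13 lower and 0 higher, including the prolyl hydroxylases P4ha3 (-6.13) and P4ha2 (-1.85) and the lysyl oxidase Loxl3 (-1.74). Of 24 matricellular and elastic fibre genes, 12 were lower and 2 higher. Fn1, fibronectin, gave 8325, 10344, 9500 and 10816 in Pkd1-/-, 6709, 6977, 7797 and 8150 in Wt and 2552, 2648, 1881 and 2794 in Pkd2-/- (log2 difference -1.99). Postn, periostin, gave 311, 286, 295 and 294 in Pkd1-/-, 81, 74, 24 and 43 in Wt and 3, 0, 22 and 1 in Pkd2-/- (log2 difference -6.34). Fn1 and Postn were both below the Wt range in every Pkd2-/- library, and Pkd1-/- libraries were above it. Igfbp2 (-6.87), the Wnt-inducible Ccn4 (-5.899), fibulin Fbln5 (-4.55) and the latent TGF-beta binding proteins Ltbp2 (-4.41) and Ltbp1 (-2.77) were lower, whereas Igfbp7 (2.62) and Ccn2 (1.65) were higher. The basement membrane list was even, with 4 of 17 higher, among them Frem2 (3.28) and Col4a2 (2.43), and 4 lower, among them Lama3 (-1.82) and Col4a6 (-1.11). Integrins Itga2 (2.111), Itga1 (1.78) and Itga3 (1.06) were higher and Itga5, the fibronectin receptor subunit, lower (-1.73).

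Markers of mesenchyme moved with the matrix genes, although 6 of the 13 fibroblast and pericyte markers stand in the matrix lists themselves. Of the 13, 5 were members, and 4 of these were lower in Pkd2-/- (Postn, Col3a1, Tagln and Acta2). The level summed over all 13 ranged from 572 to 664 normalized counts in Pkd1-/-, 70 to 228 in Pkd2-/- and 308 to 345 in Wt. Pkd2-/- library 3 stood apart at 228, against 70 to 97 in the other 3, with 31 counts of Col1a1, 44 of Col1a2 and 42 of Col3a1. Col1a1 and Col1a2, which were too low to be members, had means of 13.2 and 12.8 in Pkd2-/- against 5.25 and 1.75 in Pkd1-/-. Without that library 26 matrix genes were lower and 6 higher, and the fibrillar and network collagens were still 6 lower and 0 higher. The defining receptors Pdgfra and Pdgfrb had means of at most 2.5 in every genotype and Lum at most 0.5, and the part of such cells in the result was not tested. Vim, vimentin, gave 211, 185, 202 and 179 in Pkd1-/-, 33, 18, 18 and 33 in Pkd2-/- and 43, 27, 31 and 32 in Wt. The transcription factor Twist1 gave 91, 102, 88 and 60 in Pkd1-/-, 0, 0, 1 and 0 in Pkd2-/- and 4, 3, 9 and 10 in Wt. Both were thus raised in Pkd1-/- against the other genotypes, and of 10 regulators of epithelial-mesenchymal transition only Twist1 and Twist2 were called. Of 9 endothelial markers none was a member, and the 2 leukocyte markers among the members were not called. Bulk libraries cannot tell fewer cells of a kind from less RNA per cell.

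Clustered protocadherins were mostly lower in Pkd2-/-, and among receptors and cues for cell guidance more genes were called lower than higher. Of 17 ephrins and Eph receptors 7 were lower and only Ephb2 was higher (3.23), with a median of -0.50. Besides Ephb3 and Epha3, the lower genes were Epha5, Epha7, Efnb3, Efna3 and Efna5, and 6 of the 17 lay on opposite sides of Wt. Of 24 semaphorins, slits, netrins and their receptors 7 were lower, with 4 at the floor in Pkd2-/- and a median of -0.16. Sema7a was higher (1.85), a call that was lost without Pkd2-/- library 2 (1.52, adjusted p = 0.0593 by limma) and in a fit of the 8 mutant libraries alone (adjusted p = 0.0547). Robo1, a receptor for Slit, gave 502, 584, 588 and 579 in Pkd1-/-, 0, 0, 1 and 0 in Pkd2-/- and 8, 7, 9 and 9 in Wt. It was high only in the Pkd1-/- libraries among these 12, and Robo2, Sema3d, Sema6a, Sema3a, Ntn1 and Slit2 were the other lower genes. Of 17 clustered protocadherins, cell surface identity proteins whose isoforms share exons within a cluster, 10 were lower and 2 higher (Pcdhgb2 and Pcdhga4), with a median of -2.06. Their reads can be split uncertainly between isoforms.

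Epithelial junctions and differentiation markers split between the mutants. Of 8 desmosome genes, Dsp, Dsc2 (1.57) and Dsg2 (1.52) were higher in Pkd2-/- and 0 were lower. Of 18 tight junction genes, Cgnl1 (1.85), Cxadr (1.23), Cldn4 (1.21) and Cldn3 (1.196) were higher and Cldn9 (-4.35), Cldn1 (-3.803) and Cldn8 (-3.31) lower. Cldn1 gave 1028, 917, 927 and 852 in Pkd1-/-, 533, 592, 517 and 576 in Wt and 61, 69, 55 and 80 in Pkd2-/-. Every Pkd1-/- library was above and every Pkd2-/- library below Wt. The adhesion molecule Cadm1 gave 208, 182, 211 and 215 in Pkd1-/-, 229, 176, 219 and 235 in Wt and 4, 0, 0 and 0 in Pkd2-/-. The gap junction genes Gja1 (-3.77) and Gjb2 (-3.01) were lower. Of 11 principal cell markers among the members, Nr3c2 and Gata3 were higher and Hsd11b2, the enzyme that shields the mineralocorticoid receptor from cortisol-like hormones, was lower (-1.03, but -0.97 and thus under the fold threshold without Pkd2-/- library 2 or 4). Gata3, a transcription factor of the nephric duct lineage, gave 56, 48, 48 and 42 in Pkd1-/-, 248, 176, 236 and 247 in Wt and 327, 366, 294 and 430 in Pkd2-/-. Of the intercalated cell genes, Atp6v1b1, a subunit of the proton pump, gave 528, 437, 544 and 543 in Pkd1-/-, 65, 76, 58 and 29 in Wt and 2, 1, 1 and 0 in Pkd2-/-. Its log2 difference was -8.104, while the intercalated cell regulator Foxi1 was at 0 in all 12 libraries. Lrp2, the endocytic receptor megalin, gave 45, 52, 25 and 63 in Pkd1-/-, 483, 474, 520 and 555 in Wt and 821, 962, 738 and 1217 in Pkd2-/- (log2 difference 4.36). Podxl, podocalyxin, gave 58, 106, 71 and 85 in Pkd1-/-, 60, 44, 46 and 44 in Wt and 729, 867, 711 and 874 in Pkd2-/- (log2 difference 3.33). Lrp2 was low in Pkd1-/- and Podxl high in Pkd2-/-, each against both other genotypes. Among other genes of cystic disease, Pkhd1, whose product is fibrocystin, gave 198, 242, 213 and 273 in Pkd1-/-, 552, 499, 650 and 682 in Wt and 1380, 1436, 1303 and 1756 in Pkd2-/- (log2 difference 2.66), the only one of 21 that was called.

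Developmental transcription factors differed in part. Of 10 Hox A and 9 Hox B genes 0 were called by limma, with medians of -0.02 and -0.22. Without the fold threshold, 7 in each cluster had an adjusted p-value under 0.05. In the A cluster 4 of these were higher and 3 lower in Pkd2-/-, and in the B cluster all 7 were lower. Hoxd9, however, gave 167, 128, 145 and 133 in Pkd1-/-, 63, 83, 84 and 73 in Wt and 1, 0, 0 and 0 in Pkd2-/-. Hoxd8 gave 336, 401, 368 and 358 in Pkd1-/-, 382, 341, 376 and 379 in Wt and 9, 7, 10 and 9 in Pkd2-/-. Both were near 0 only in Pkd2-/-, and the log2 difference of Hoxc4 was -1.33. Irx2, an Iroquois factor, gave 360, 391, 385 and 383 in Pkd1-/-, 557, 582, 576 and 532 in Wt and 0, 0, 0 and 0 in Pkd2-/-. Sox11 gave 310, 320, 358 and 289 in Pkd1-/-, 520, 378, 454 and 534 in Wt and 1, 1, 0 and 2 in Pkd2-/-. In both, Pkd1-/- was somewhat below Wt and Pkd2-/- had lost nearly all counts. Meis1, Lhx1 and Tbx20 were lower and Meis3 (2.69), Tshz1 (1.89), Irx3 (1.41) and Sox12 (1.29) higher.

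Growth factor and signaling genes diverged gene by gene. Gfra1, the co-receptor that lets the kinase Ret bind GDNF, gave 1837, 1941, 1884 and 2043 in Pkd1-/-, 4, 5, 4 and 6 in Pkd2-/- and 0, 0, 2 and 4 in Wt (log2 difference -8.402). It was switched on in Pkd1-/- libraries only, while Ret was at 0 in all 12 libraries. Wnt10a gave 1046, 1094, 1185 and 1035 in Pkd1-/-, 101, 77, 96 and 90 in Wt and 3, 0, 2 and 2 in Pkd2-/-. Wnt5b gave 10, 14, 16 and 23 in Pkd1-/-, 54, 53, 52 and 40 in Wt and 412, 396, 452 and 333 in Pkd2-/-. These secreted Wnt ligands thus moved in opposite directions, and of 34 Wnt pathway members 3 were higher and 10 lower, including the ligands Wnt6 (at least 55.6-fold higher in Pkd1-/-) and Wnt16 (-1.41) and the receptor Fzd1 (-2.44). Among receptor ligands Fgf18 (2.56), Fgf9 (2.37), Nrg1 (1.95), Pdgfb (1.37) and Hbegf (1.15) were higher and Pdgfc (-6.34), Fgf5 (-5.02), Vegfc (-4.82) and Gdnf (-2.38) lower. Of 33 TGF-beta and BMP pathway genes 4 were higher, with Gdf15 first (4.28), and 6 lower, with the antagonist Chrdl1 first (-4.79), or 30.3% called. Of 20 Notch genes 2 were higher, among them Dll1 (1.54), and 3 lower, among them Jag1 (-5.93), or 25% called. Of 52 genes of cyclic AMP and calcium handling, pathways in which polycystins are known to act, 5 were higher and 3 lower, or 15.4% called beside 10.4% of all members. They included the phosphodiesterases Pde4c (2.13), Pde4a (2.04) and Pde5a (-1.25), the adenylyl cyclase Adcy9 (1.12, and 0.92 without Pkd1-/- library 1), the inositol trisphosphate receptor Itpr2 (2.28) and the mechanosensitive channel Piezo2 (-6.23). Of 37 ion, water and osmolyte transport genes 24.3% were called. In this list 5 were higher, among them the chloride channel Ano1 (2.94), and 4 lower, among them the cotransporter Slc12a2 (-1.18) and the water channel Aqp1 (-1.104).

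Immediate early genes and feedback genes of MAPK signaling were more often higher than lower in Pkd2-/-, with a wide spread between dishes. Immediate early genes answer growth factor and stress signals within minutes and include the AP-1 factors. The list holds both kinds together. Of its 31 members 11 were higher and 1, Etv4, was lower (-1.62), with a median of 0.82. Fosb gave 158, 227, 286 and 458 in Pkd1-/-, 128, 345, 293 and 631 in Wt and 940, 1656, 1019 and 3198 in Pkd2-/- (log2 difference 2.51, SE 0.41, adjusted p = 4.75e-05). Fos gave 5078, 6268, 8069 and 8426 in Pkd1-/-, 4362, 7146, 7978 and 9992 in Wt and 14151, 18581, 18074 and 32232 in Pkd2-/- (log2 difference 1.54, SE 0.23, adjusted p = 1.95e-05). Library number 4 was the highest of its genotype for Fosb and for Fos in all 3 genotypes, and the mutants did not overlap. Without Pkd2-/- library 4, Fosb was higher by 2.15 and Fos by 1.30 on the log2 scale, and 11 of the list were called. Against a log2 difference of 1 rather than 0 only 3 of the list were called. Atf3 (2.398), Egr2 (1.75), Junb (1.24), Ier2 (1.299) and the phosphatases Dusp2 (1.88) and Dusp5 (1.503) were also higher.

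Metabolic genes separated into a lower and a higher group. Of 33 genes of glycolysis, lactate and the hypoxia response, 13 were lower and 3 higher in Pkd2-/-, with a median of -0.72, and 9 lay on opposite sides of Wt. Ldha, the lactate dehydrogenase subunit, gave 30984, 29296, 36103 and 31563 in Pkd1-/-, 21762, 23442, 20612 and 23724 in Wt and 14276, 14582, 14391 and 13532 in Pkd2-/- (log2 difference -1.17, SE 0.06, adjusted p = 1.06e-11). Pgk1, phosphoglycerate kinase, gave 13388, 12489, 15609 and 12836 in Pkd1-/-, 9000, 8727, 8346 and 9718 in Wt and 6161, 6421, 5981 and 6047 in Pkd2-/- (log2 difference -1.14). The 3 genotypes did not overlap for either gene, in the order Pkd2-/-, Wt, Pkd1-/-. Ndrg1, the mitophagy receptor Bnip3 (-1.31), the oxygen sensor Egln3 (-2.23), carbonic anhydrase Car9 (-2.64) and the lactate exporter Slc16a3 (-1.58) were lower, and Adm (1.39), Pfkfb3 (1.197) and Slc16a1 (1.08) higher. Against a log2 difference of 1 the number called in this list was 7, and 13 with each chromosome's median subtracted. Amino acid genes leaned higher, with 5 of 22 higher, among them Ass1 (1.96), Psat1 (1.39) and Asns (1.27), and Cth lower (-1.79). Of 21 genes of the unfolded protein and integrated stress responses, Trib3, Chac1 (2.113), Ddit3 (1.52) and Sesn2 (1.37) were higher and Fgf21 lower (-1.37). These were 23.8% of the list, beside 10.4% of all members called. Trib3, a pseudokinase of the stress response, gave 350, 351, 252 and 331 in Pkd1-/-, 351, 402, 399 and 351 in Wt and 2196, 2227, 2038 and 2013 in Pkd2-/- (log2 difference 2.73). Only the Pkd2-/- libraries were raised.

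Genes of metal handling and detoxification were also divided. Lcn2, the iron-siderophore carrier lipocalin 2 and a marker of tubule injury, gave 710, 558, 643 and 558 in Pkd1-/-, 2862, 2954, 2893 and 2616 in Wt and 5249, 5164, 4753 and 4334 in Pkd2-/- (log2 difference 2.98, adjusted p = 3.68e-16). It was low in Pkd1-/- and high in Pkd2-/- against Wt. Of 16 metal genes 6 were higher, among them ceruloplasmin Cp (3.37) and the metallothionein Mt2 (1.23), and 2 lower, Slc40a1, the iron exporter ferroportin (-1.43), and Slc22a17 (-1.38). Of 56 detoxification genes 9 were higher and 8 lower, or 30.4% called beside 10.4% of all members. Aldh1a1, a retinaldehyde dehydrogenase, gave 152, 118, 150 and 129 in Pkd1-/-, 20, 17, 19 and 20 in Wt and 3, 3, 1 and 0 in Pkd2-/-. Its relative Aldh1a2 gave 153, 132, 115 and 151 in Pkd1-/-, 2003, 1964, 2053 and 1945 in Wt and 1266, 1370, 1326 and 1440 in Pkd2-/-. Aldh1a1 was thus near 0 in Pkd2-/- and above Wt in Pkd1-/-, whereas Aldh1a2 was below Wt in both mutants and lowest in Pkd1-/-. The log2 difference of the exporter Abcg2 was -4.87.

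Core machinery had few calls, beside 10.4% of all members called. The shares were 1.85% of the cilium lists, 6.52% of cell cycle, 4.35% of cholesterol synthesis and 3.57% of chromatin genes. Lists this short give rough shares, and without the fold threshold the cilium and cell cycle lists leaned lower in Pkd2-/-. Of 25 genes of intraflagellar transport, which builds the cilium, 0 were called by limma, and 1 was called when Pkd1-/- library 1 was left out. At an adjusted p-value under 0.05 without the fold threshold, 4 were higher and 12 lower in Pkd2-/-. Of 29 genes of the transition zone and BBSome only Ahi1 was called (-1.09), with 4 higher and 18 lower without the threshold. Normalized counts summed over both cilium lists were 47815 to 48626 in Pkd2-/-, 51876 to 53900 in Pkd1-/- and 52295 to 52890 in Wt. Of 46 cell cycle genes 3 were called, Cdk6 higher (1.08) and Ccnd2 and Cdkn1c lower (-5.35 and -1.68). Without the threshold, 4 were higher and 22 lower. Over all members 27.8% were higher and 29.4% lower without the threshold. Of 23 cholesterol synthesis genes only Mvk was called (-1.02, but -0.997 without Pkd1-/- library 3 and -0.984 without Pkd2-/- library 4), and of 28 chromatin genes only the histone variant gene H2afy2 (2.69). A gene that was not called is not shown to be equal in the mutants, since 57.2% of members passed an adjusted p-value of 0.05 when no fold was required.

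**Figure D4:**
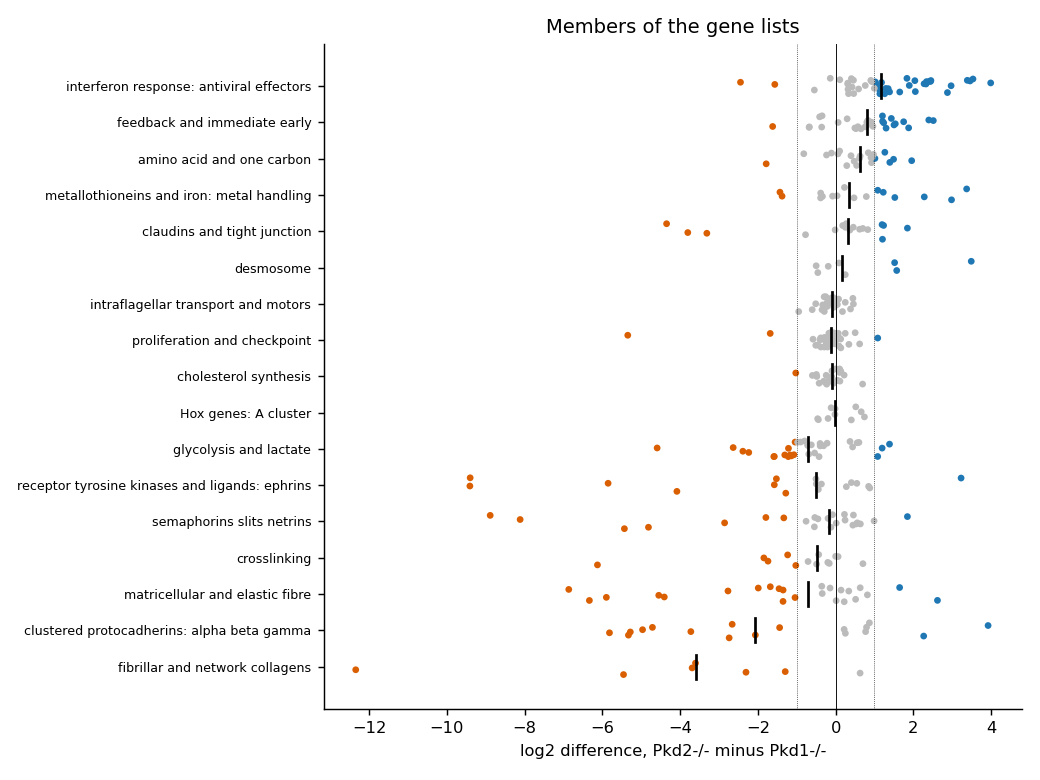
Log2 difference between Pkd2-/- and Pkd1-/- (x axis) of the members of 17 gene lists, 1 point a gene, with called genes in blue (higher in Pkd2-/-) or orange (lower), a black bar at each list's median and dotted lines at differences of -1 and 1. Antiviral effectors lie mostly to the right with a median of 1.16 and fibrillar collagens to the left with a median of -3.60, whereas intraflagellar transport genes stay between the dotted lines.

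Imprinted genes, of which only the copy from 1 parent is normally active, were divided, with 4 of 22 higher and 6 lower. H19 gave 685, 600, 494 and 629 in Pkd1-/-, 1054, 1238, 1040 and 1326 in Wt and 26, 6, 15 and 40 in Pkd2-/-. Its neighbor Igf2 gave 48, 97, 53 and 98 in Pkd1-/-, 21, 11, 8 and 18 in Wt and 0, 1, 0 and 1 in Pkd2-/-. Both were lowest in Pkd2-/-, with Igf2 but not H19 above Wt in Pkd1-/-. Peg10 (-2.94) and Mest (-2.502) were lower too, and Peg3 (2.199) and its neighbor Usp29 (2.72) higher.

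Some differences followed whole chromosomes or long stretches of them. Members on chromosome 2 had a median log2 difference of 0.27, with 74.5% above 0, and the medians of single libraries against the Wt mean were 0.333 to 0.344 in Pkd2-/- and 0.0482 to 0.0654 in Pkd1-/-. On chromosome 5 the 450 members from the start of the chromosome to base 107987085 had a median of 0.29, and the 210 members from base 134099711 onward a median of -0.35. In the first stretch the Pkd1-/- libraries were below Wt (-0.34 to -0.31) and in the second above it (0.22 to 0.26), while Pkd2-/- stayed between -0.07 and 0.00. Chromosome 16 had a median of 0.09, chromosome 19 of 0.10 and chromosome X of -0.13, and the other autosomes lay between -0.0723 and 0.0293. Of 263 blocks of 50 or more neighboring members, 41 had a median beyond 0.2 in either direction, and 34 of these were on chromosomes 2, 5 and 16. On chromosome 16 the blocks from base 36071685 onward had medians of 0.37, 0.14 and 0.35, and the earlier blocks -0.18 to 0.02. In the later blocks the Pkd1-/- medians against Wt were -0.29 to -0.22. On chromosome 19 both mutants were above Wt, with medians of 0.18 in Pkd1-/- and 0.29 in Pkd2-/-. These shifts are below the fold threshold. With each chromosome's median subtracted 1395 members were called. That step takes the same value from all genes of a chromosome in a library. It therefore leaves stretches that differ within a chromosome, as on chromosome 5, and cannot show how far calls depend on them. Whether the shifts reflect the number of chromosome copies was not tested.

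**Figure D5:**
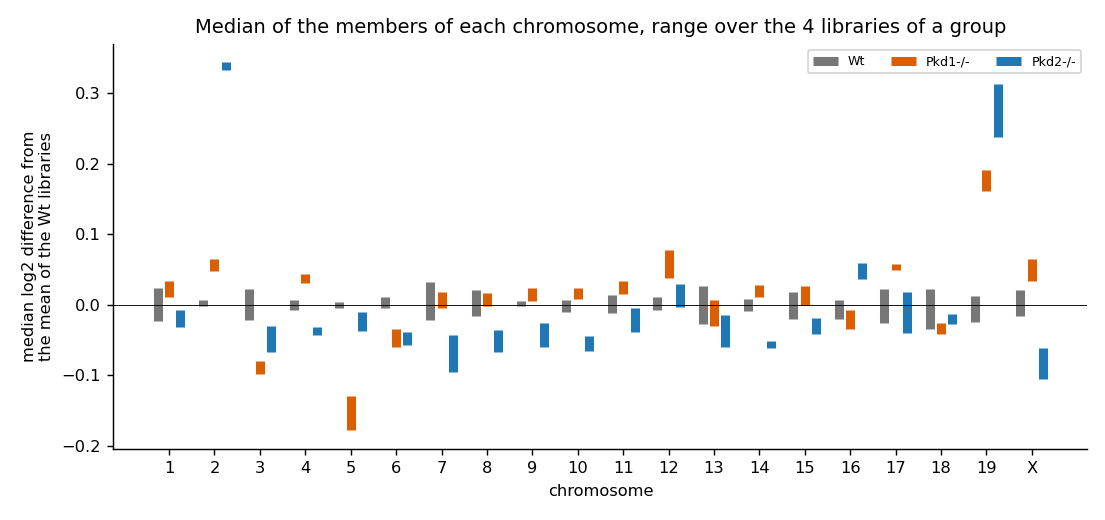
Median log2 difference from the mean of the Wt libraries (y axis) over the members of each autosome and of chromosome X (x axis), with each bar running from the lowest to the highest of the 4 libraries of a genotype. Pkd2-/- stands at 0.333 to 0.344 on chromosome 2, and Pkd1-/- is lowest on chromosome 5.

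The sex chromosomes differed in another way. Of 474 members on chromosome X, 50 (10.5%, against 6.19% of all members) were lower in Pkd2-/- and 1, Mid2, was higher (2.05), against 4.2% of all members. Of the 51 called, 20 were at the floor in Pkd2-/-, so that 12.4% of the 161 members at the floor were on this chromosome, which holds 3.47% of members. A block of 50 members from base 106027276 to base 135803474 had a median of -0.53, with 17 lower and 0 higher. Prrg1 and Pcdh11x have been described above, the Pkd1-/- mean of Nrk was at least 40.7 times that of Pkd2-/-, and Chrdl1, Col4a6 and Pgk1 are also among the 50. The 6 members on chromosome Y were all higher in Pkd2-/- at an adjusted p-value under 0.05 and 5 passed the fold threshold, with a median of 1.62. Here Pkd1-/- libraries were below Wt, at a median of -1.66 to -1.56, and Pkd2-/- libraries were close to it, at -0.0668 to 0.19.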

How the data were processed

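RNA of 12 libraries was sequenced, 4 per genotype. The authors used Trim Galore for trimming, HISAT2 for alignment to GRCm38, htseq-count for counts per gene and DESeq2 for size factors, by which the counts were divided. The deposited values, rounded to whole numbers by the authors, are a score and not read counts, so no count model was used here. All 12 sample columns were used, leaving 0 unused, and the strand setting is not given in the sources used here. Counting without strand would mix a gene with its antisense partner.

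The 12 libraries entered 1 limma model of log2(normalized count + 1) (limma 3.58.1, variance trend, R 4.3.3, Python 3.11.15), for the 18552 genes that averaged 1 or more, two-sided with Benjamini-Hochberg adjustment. Log2 differences on this scale understate changes of low genes. Calls needed a log2 difference of 1 or more in size with an adjusted p-value below 0.05. The code was tested on simulated data. A floor of 3 counts covers counting error only. Symbols came from GENCODE M21 (419 identifiers unmatched) and promoters from RefSeq. Members and gene lists were chosen with earlier results of these data known. Genes named are Pkd1, Pkd2 and their neighbors within 100 kb, the 12 largest differences each way among called protein-coding members without overlap, the 8 each way with a mean of at least 1000, the 10 opposite-side genes each way and up to 6 called genes of each list, with some others where their role helps. Alternatives were other pseudocounts, filters, scalings, models and left-out libraries.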

Additional observations from a re-analysis of the deposited data

Results flagged for a closer look

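For 534 genes called between Pkd2-/- and Pkd1-/-, each mutant differed from wild-type at an adjusted p-value under 0.05 (limma), in opposite directions, with 1 clone a genotype. By sign alone, without a p-value against wild-type, 1009 called members had opposite differences.

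Among the 55 genes whose library values or means are given, 1 library of 4 stood apart from the other 3 by Dixon's criterion in 12 of 165 groups, and chance alone gives about 1 in 20. In Pkd2-/-, Arhgap28 read 378 in library 4 against 307 to 314 in the others, Cadm1 read 4 in library 1 against 0, Postn read 22 in library 3 against 0 to 3, and Anxa1 read 15919 in library 3 against 14576 to 14628. In Pkd1-/-, Atp6v1b1 read 437 in library 2 against 528 to 544 and Robo1 read 502 in library 1 against 579 to 588. In Wt, Bend4 read 64 in library 1 against 76 to 78, Col11a1 read 409 in library 3 against 335 to 346, and Gata3 read 176 in library 2 against 236 to 248. Also in Wt, Hoxd8 read 341 in library 2 against 376 to 382, Podxl read 60 in library 1 against 44 to 46, and Wnt5b read 40 in library 4 against 52 to 54. Without the library in question the log2 difference between the mutants was -7.22 rather than -6.34 for Postn and -7.68 rather than -7.10 for Cadm1, and it stayed within 0.1 for Arhgap28 (8.28), Anxa1 (-2.40), Atp6v1b1 (-8.18) and Robo1 (-8.94).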

How the results depend on the processing

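Calls rest on 1 clone a genotype, on a scale compressed by the pseudocount for low genes, and on depth that leaves a count of 0 open to up to 3 counts. Against a log2 difference of 1 rather than 0, 855 members were called, 315 higher and 540 lower, and with no fold threshold 7813, 3798 higher and 4015 lower. Requiring a log2 difference of at least 1 from wild-type in each mutant left 185 genes on opposite sides. Other pseudocounts, filters, scalings, a robust trend, adjustment for GC and transcript length, subtraction of chromosome medians and models of fewer libraries gave 1307 to 1457 calls and 490 to 566 genes on opposite sides. Adjusted for GC and transcript length, the calls divided into 692 higher and 765 lower, where the report gives 573 and 846. Leaving out 1 library gave 1404 to 1457 calls, 555 to 603 higher and 834 to 858 lower, and 495 to 543 genes on opposite sides. With the replicate block the calls were 1424, 575 higher and 849 lower, with 550 on opposite sides. By correlation the numbers paired the mutants' libraries little. Same-numbered libraries correlated at 0.083, -0.013, -0.000959 and 0.19 in their deviations, and 2 of 8 correlated best with their own number. Fosb and Fos, however, were highest in library 4 of every genotype. Whether dishes of the same number were handled together was not tested.

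Among genes with a mean of at least 100 the median was 0.319 on chromosome 2 and 0.130 on chromosome 5, and without single libraries it was 0.263 to 0.280 on chromosome 2 and 0.072 to 0.092 on chromosome 16. Of 322 named genes none reversed under any alternative run, 66 were not called against a log2 difference of 1, and 18 lost the call under at least 1 other alternative: Adcy9, Cdk6, Col4a6, Hsd11b2, Hspa1b, Kcnq1, Mvk, Nr1d1, Nrarp, Plcb4, Plod1, Sema7a, Slc7a5, Smad7, Sox9, Tceal8, Twist2 and Zfp345. The cause was not tested.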

Other observations

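The called genes with the highest levels, picked after their values were seen, included secreted and membrane proteins of the tubule. Anxa1, the anti-inflammatory annexin A1, gave 77393 ± 2691 normalized counts in Pkd1-/-, 14934 ± 657.2 in Pkd2-/- and 30826 ± 1625 in Wt (mean ± SD, n = 4 each), so that it was high in Pkd1-/- and low in Pkd2-/-. Txnip, a glucose-responsive thioredoxin inhibitor, gave 20565 ± 1503 in Pkd1-/- and 46349 ± 2848 in Pkd2-/-, and F3, tissue factor, gave 15932 ± 454.6 and 36607 ± 3116. Carboxypeptidase Cpe (2.09), the lipid raft protein Mal (1.85) and the lipoprotein receptor Vldlr (1.54) were higher in Pkd2-/-, while the actin-severing protein gelsolin, Gsn, was lower (-1.33).

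Other gene lists had calls in both directions or few calls, beside 10.4% of all members called. Of 19 genes of the Hippo pathway 3 were higher, among them the target Ankrd1 (2.48), and 3 lower, among them Vgll3 and Axl (-1.45). Of 27 proteases and inhibitors 5 were higher, among them the urokinase receptor Plaur (1.41) and Mmp15 (2.99), and 5 lower, among them Mmp2 (-1.33). Of 25 nuclear receptors 3 were higher and 3 lower, with Nr2f1 and the vitamin D receptor Vdr at the floor in Pkd2-/- and the bile acid receptor Nr1h4 at the floor in Pkd1-/-. Of 13 intermediate filament genes, Krt80 was higher (1.39) and Krt15, Krt20 and Vim lower. Of 59 cytoskeletal genes 2 were higher and 10 lower, of 32 genes of fatty acid metabolism 0 were higher and 2 lower, and of 29 p53 and apoptosis genes 2 were higher and 1, Bcl2, lower (-1.68), or 10.3% called, about the share of all members. Of 38 zinc finger genes named Zfp 2 were lower, of 7 Hedgehog genes Cdon was lower (-1.899), and of 12 X-linked Bex, Tceal and related genes 4 were lower.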
